A study of Mus musculus with 3 samples.

Results

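LSD1, the histone demethylase encoded by Kdm1a, works as part of a corepressor complex, and the transcripts of that complex were followed here in splenic tumours of 3 mice. The set consists of 9 genes chosen by name: the demethylase genes Kdm1a and Kdm1b, the CoREST scaffold genes Rcor1, Rcor2 and Rcor3, the subunit genes Phf21a and Hmg20b, and the recruiting factor genes Gfi1 and Gfi1b. Their probes were those whose RefSeq transcript belongs to one of these genes, which gave 16 of the 32994 probes with a gene name and 9 of the 22908 genes so named. The rule names the genes and uses no measured value, but the set was put together with results of these data known.

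LSD1 removes mono- and dimethyl marks from the tail of histone H3 with FAD as cofactor. CoREST proteins hold it on the nucleosome beside the deacetylases HDAC1 and HDAC2, so that both kinds of activating mark are taken off together. In blood formation the zinc finger repressors GFI1 and GFI1B bring this complex to DNA through a short N-terminal motif, the SNAG domain, that resembles the histone tail. GFI1 is known for its part in neutrophil and lymphoid development and GFI1B for its part in red cell and platelet development.

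The comparison was between 1 tumour of genotype p53+/−, called the p53 tumour, and 2 tumours of genotype LSD1 × p53+/−, called LSD1 tumour 2 and LSD1 tumour 3 after the numbers in their titles. All 3 mice were male, 10 weeks old and heterozygous for p53, the control included. The labels do not state what was altered at LSD1, in which cells it acts, or whether a number stands for a mouse or for a line. They call the tissue a splenic tumour without naming a tumour cell type. Expression was measured on 1-colour Agilent arrays, with 1 array for each tumour.

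The arrays were of like quality. Between 51.4% and 55.6% of the spots that are not controls were well above background, and 0 spots were saturated. Signals are given relative to the array's own 75th percentile, so that a level of 1 is the brightness at that percentile. Levels of different probes depend on the probe as well as on the transcript and are compared only within a probe. The software's error for a single bright spot was close to 10.0%, which puts an error of 0.20 log2 units on a difference between 2 arrays. Probes printed 10 times on each array gave less, with an SD of the difference between 0.0876 and 0.101 log2 units for levels near 1. Neither figure includes the spread between animals, for which the gap between the LSD1 tumours is the only measure. The p53 tumour and LSD1 tumour 3 shared a slide and a scan, while LSD1 tumour 2 was on another.

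Of the 16 probes, 12 were well above background on all 3 arrays, 1 on only 2 arrays and 3 on none. Every one of the 9 genes had a probe above background on all 3 arrays, so all 9 were tested. Kdm1b, Hmg20b and Gfi1 had 2 probes each, Rcor3 and Phf21a had 3, and the other 4 genes had 1. Where a gene had several probes, its brightest on average stood for it.

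**Figure D1:**
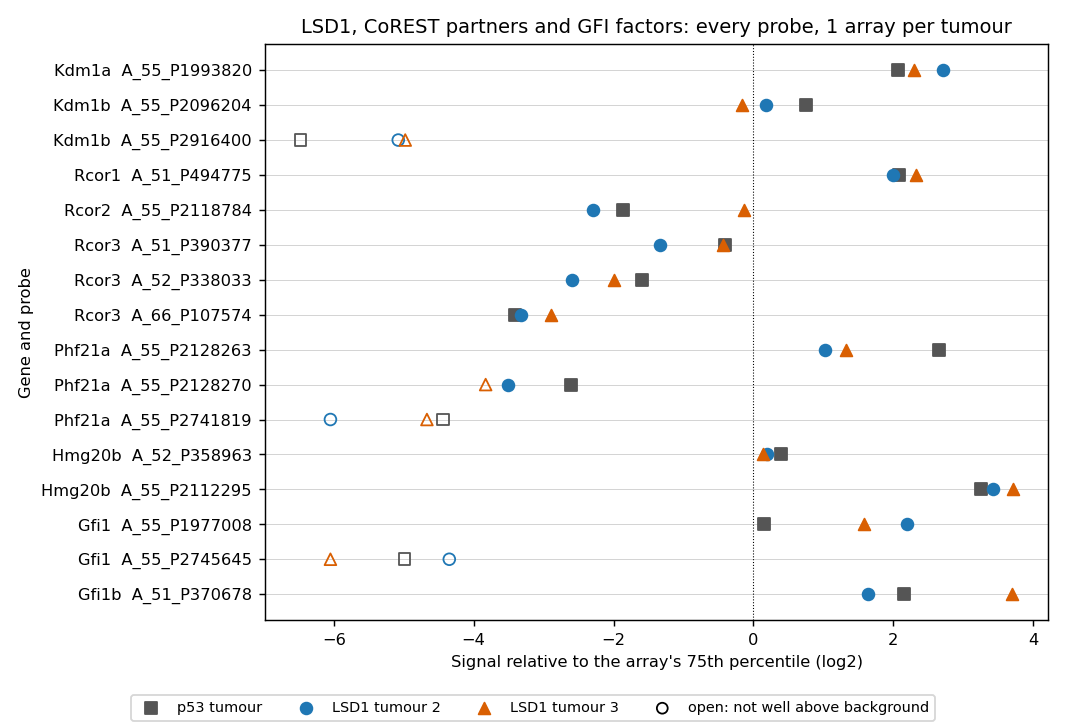
Signal of every probe of the 9 genes (log2, relative to the array's 75th percentile) in the p53 tumour (squares), LSD1 tumour 2 (circles) and LSD1 tumour 3 (triangles), 1 array each, with open symbols for signals not well above background. For Gfi1 and Phf21a both LSD1 tumours lie on one side of the p53 tumour, while for Rcor2 and Gfi1b LSD1 tumour 3 lies apart from both others.

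Gfi1 and Phf21a were the members for which both LSD1 tumours lay 2-fold or more to one side of the control, above it for Gfi1 and below it for Phf21a. Gfi1b and Rcor2 were higher in LSD1 tumour 3 alone. Kdm1a differed less than any of these in LSD1 tumour 3, but more than Gfi1b and Rcor2 in LSD1 tumour 2. The limma test, fitted across 15241 genes, called none of the 9, with adjusted p-values from 0.967 to 0.992. It called 0 genes of all tested (percent called 0) at an adjusted p of 0.05, and 568 genes (3.73%) had an unadjusted p under 0.05, Gfi1 among them. By size, 1 of 9 members was at least 2-fold higher in both LSD1 tumours, where 3.48% of all genes were, and 1 of 9 at least 2-fold lower, where 5.38% were. Counts of 1 gene in 9 cannot be told from these backgrounds.

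Kdm1a was higher in LSD1 tumour 2, while in LSD1 tumour 3 its difference was little above the error from the spots. Its signal was 4.2 times the 75th percentile in the p53 tumour against 6.57 and 4.91 times in LSD1 tumours 2 and 3. LSD1 tumour 2 thus had the highest level, and LSD1 tumour 3 lay close to the p53 tumour. The log2 differences were 0.65 and 0.22, against an error of 0.20 each from the spots alone. The median gene differed by 0.05 and 0.16 on the same scale, which leaves 0.59 and 0.06 for Kdm1a. Differences at least as large were found in 40.9% of all genes in LSD1 tumour 2 and in 79.1% in LSD1 tumour 3. The mean over both tumours was 0.44 ± 0.519 (SE, limma, adjusted p = 0.972). The second difference turned to -0.04 after quantile normalization and to -0.14 in the authors' value table. The gene has 1 probe, assigned to the transcript NM_133872, and an LSD1 transcript without the probe's target would not be seen.

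Kdm1b, which encodes LSD2, the other flavin-dependent histone demethylase of this family, had lower values instead. Its level was 1.69 in the p53 tumour against 1.13 and 0.898 in LSD1 tumours 2 and 3, so that both LSD1 tumours lay below the control. It was 1.49-fold and 1.88-fold lower, or -0.57 and -0.91 log2 units with spot errors of 0.21. The gap between the LSD1 tumours was 0.34, less than either difference (limma mean -0.74 ± 0.504 SE, adjusted p = 0.967). The sign was negative in both tumours under each of the 9 settings of scaling, filter and probe that were run. The filter and outlier settings left every member's value unchanged, as did probe averaging for Kdm1b, so those settings give no check. The other Kdm1b probe stayed at background on all arrays and gives no check.

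The 3 CoREST scaffold genes differed from one another in pattern. Rcor1, the CoREST protein first purified with LSD1, stood at 4.22 in the p53 tumour against 3.99 and 5.03 in LSD1 tumours 2 and 3. Its differences of -0.08 and 0.25 were of the size of the spot error or little above it. Rcor2 encodes a second scaffold best known from embryonic and neural progenitor cells. It stood at 0.276, 0.204 and 0.908 in the same order, which sets LSD1 tumour 3 apart from both other tumours. Against the control, LSD1 tumour 3 was 3.29-fold higher for Rcor2 and LSD1 tumour 2 was 1.35-fold lower. The LSD1 tumours differed by 2.15 log2 units, a gap that 8.1% of all genes matched or passed. The limma mean of 0.64 had an SE of 1.14 and an adjusted p of 0.981.

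Rcor3, whose protein can bind LSD1 but is known for weaker support of demethylation, was lowest in LSD1 tumour 2. Its brightest probe read 0.758 in the p53 tumour against 0.399 and 0.741 in LSD1 tumours 2 and 3, or -0.93 and -0.03 log2 units from the control. A second probe, assigned to NM_001290282, read 0.331, 0.166 and 0.252, with differences of -1.0 and -0.39. The dimmest, assigned to NM_001290279, read 0.0944, 0.0993 and 0.134, with differences of 0.07 and 0.50. The 3 probes therefore disagreed on the direction, and the spot errors of the dimmest were 0.36 and 0.33. In LSD1 tumour 3 the sign for the brightest probe also turned under 3 settings that kept it as the probe (quantile normalization, median scaling and normexp).

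Phf21a encodes BHC80, the subunit whose PHD finger reads histone H3 without methylation at the residue that LSD1 demethylates. It was the member with the lowest values relative to the p53 tumour. Its brightest probe, assigned to NM_001109691, read 6.28 in the p53 tumour against 2.04 and 2.49 in LSD1 tumours 2 and 3. The LSD1 tumours lay within 0.28 log2 units of each other and 1.62 and 1.34 below the control, with spot errors of 0.20. These are differences of 3.07-fold and 2.52-fold, matched or passed in size by 10.2% and 16.3% of all genes. A second probe, assigned to NM_138755, pointed the same way: it read 0.164 in the p53 tumour and 0.0879 in LSD1 tumour 2 (1.86-fold lower). In LSD1 tumour 3 this probe was not well above background. Its dim reading there was 2.33-fold lower, with a spot error of 0.39 log2 units. The remaining probe, assigned to NM_001109690, was above background on no array. The limma mean was -1.48 ± 0.497 (SE, adjusted p = 0.967), and the gene was at least 2-fold lower in both tumours under each of the 9 settings.

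Hmg20b, encoding the DNA-bending HMG box subunit BRAF35, had 2 bright probes that disagreed. The brighter read 9.57 in the p53 tumour against 10.8 and 13.1 in LSD1 tumours 2 and 3, with differences of 0.17 and 0.45. The other read 1.31, 1.14 and 1.09, with differences of -0.19 and -0.26. No direction is therefore given for this gene.

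Gfi1 had the highest mean difference from the p53 tumour among the members, although Rcor2 and Gfi1b exceeded it in LSD1 tumour 3. Its level was 1.11 in the p53 tumour against 4.56 and 2.99 in LSD1 tumours 2 and 3, so both LSD1 tumours lay above the control. The differences were 4.11-fold and 2.70-fold, or 2.04 and 1.43 log2 units, with spot errors of 0.20 and a gap of 0.61 between the LSD1 tumours. Differences of that size were found in 6.68% of genes in LSD1 tumour 2 and in 14.1% in LSD1 tumour 3. The limma mean was 1.74 ± 0.559 (SE), with an unadjusted p of 0.0474 and an adjusted p of 0.967. Gfi1 was at least 2-fold higher in both tumours under each of the 9 settings, with lowest values of 1.82 and 1.07 in the authors' value table. The other Gfi1 probe was above background on no array.

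Genes of neutrophil precursors and of dividing cells, like Gfi1, had higher values in both LSD1 tumours. The neutrophil precursor list had all 10 of its genes higher in both LSD1 tumours under each of the 9 settings. In the main setting 38.9% of all genes were higher in both. The neutrophil precursor genes had medians of 1.42 and 1.29 log2 units against 0.05 and 0.16 for all genes. Their summed level was 24.5 in the p53 tumour against 63.9 and 64.3 in LSD1 tumours 2 and 3. Of the 15 proliferation genes all were higher in both (medians 1.0 and 1.71, summed levels 124, 200 and 379), although 14 were with quantile normalization. Between the LSD1 tumours, 13 of 15 proliferation genes were higher in LSD1 tumour 3, whereas Gfi1 was higher in LSD1 tumour 2. The share of all genes higher in LSD1 tumour 3 than in LSD1 tumour 2 was not counted. Of the 10 neutrophil precursor genes 6 were higher in LSD1 tumour 3, but 4 with quantile normalization or the authors' value table. No order of the LSD1 tumours is therefore given for that list. The 7 genes of mature neutrophils were split instead, with 3 higher and 3 lower in both (medians 0.01 and -0.25). T cells are another known site of Gfi1 expression, and 14 of 16 T cell genes were higher in LSD1 tumour 2 and 0 of 16 in LSD1 tumour 3 (summed levels 119, 312 and 61.2). In RNA from whole tissue, more cells of a type and more RNA per cell cannot be told apart, and the part of these cells in the Gfi1 level was not tested. Among the 190 listed genes above background on all 3 arrays, the pair of differences nearest to that of Gfi1 belonged to the granule gene Ltf (1.80 and 1.30), the mitotic transcription factor gene Foxm1 (1.64 and 1.57) and the granule gene Ngp (1.54 and 1.25). Likeness here was a distance over 3 arrays only, of 0.27, 0.43 and 0.54 log2 units. It used the brightest probe of each gene, and another Foxm1 probe, above background on 2 arrays, gave 1.83 and 2.33.

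Gfi1b, which occupies the same DNA motif as Gfi1, had a different pattern. Its level was 4.45 in the p53 tumour against 3.12 and 13.0 in LSD1 tumours 2 and 3. LSD1 tumour 3 was thus 2.92-fold above the p53 tumour and LSD1 tumour 2 was 1.43-fold below it, or 1.55 and -0.51 log2 units with spot errors of 0.20. The LSD1 tumours were 2.06 log2 units apart, a gap matched or passed by 8.7% of all genes, and the limma mean of 0.52 had an SE of 1.1 (adjusted p = 0.982). Both signs held under each of the 9 settings. By size, 2 of 9 members, Gfi1b and Rcor2, were at least 2-fold higher in LSD1 tumour 3 than in LSD1 tumour 2, where 14% of all genes were, and 0 of 9 were in the reverse direction, where 11.1% were.

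Erythroid genes had the Gfi1b pattern. All 16 tested members of the erythroid list were higher in LSD1 tumour 3 than in LSD1 tumour 2 under each of the 9 settings. Against the p53 tumour, 16 of 16 were higher in LSD1 tumour 3 and 3 of 16 in LSD1 tumour 2. The medians were 1.52 and -0.35, beside 0.16 and 0.05 for all genes. In LSD1 tumour 3 quantile normalization gave 15 and the authors' values gave 14. The summed level was 863 in the p53 tumour against 607 and 1270 in LSD1 tumours 2 and 3. Sptb was the listed gene not above background on any array. The 3 listed genes nearest to Gfi1b were all erythroid: the erythropoietin receptor gene Epor (-0.56 and 1.61), the transcription factor gene Nfe2 (-0.44 and 1.5) and Rhd of the Rh blood group complex (-0.37 and 1.49), at distances of 0.08, 0.09 and 0.16. These distances used brightest probes, and other probes gave -0.07 and 2.04 for Epor and -0.69 and 1.76 for Rhd. Megakaryocyte genes, the other known setting of Gfi1b, had medians of -0.31 and 0.12, with 9 of 12 higher in LSD1 tumour 3 than in LSD1 tumour 2. Against the control, 8 of 12 were higher in LSD1 tumour 3, but 1 by the authors' value table (medians -0.52 and -0.25). The share of all genes higher in LSD1 tumour 3 than in LSD1 tumour 2 was not counted, for this list or the erythroid one. The part of red cell precursors in the Gfi1b level was not tested.

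B cell genes were lower beside Phf21a. All 15 were lower in both LSD1 tumours, where 27.8% of all genes were, except that 1 was higher in LSD1 tumour 3 with median scaling. The B cell medians were -2.57 and -1.03 and the summed levels 377, 59.6 and 203. The listed gene nearest to Phf21a was Pax5 (-1.44 and -1.03, distance 0.35), the transcription factor of B cell identity. The next were Irf8, of B cells and myeloid cells, and the NuRD helicase gene Chd3, both at 0.52. The B cell list was lowest in LSD1 tumour 2. B cells were not the only cells with lower values. Lower in both LSD1 tumours were 7 of 8 dendritic cell genes (medians -1.79 and -0.79) and 6 of 7 plasma cell genes (-2.16 and -0.43). Of NK cell genes 4 of 7 were (-1.02 and -2.24). The 2 Phf21a probes above background disagreed on the order of the LSD1 tumours, the brightest being 1.22-fold lower in LSD1 tumour 2 and the other reading 0.0879 there against 0.0701, not well above background, in LSD1 tumour 3. Whether fewer cells of any of these types lower the Phf21a signal was not tested. For Kdm1a the nearest listed genes were Sall4 (0.55 and 0.14) and the NuRD genes Mta1 (0.62 and 0.47) and Mta3 (0.43 and 0.42). The other Mta3 probes differed from that value, at 0.04 and -0.24 and at -0.8 and -0.41.

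**Figure D2:**
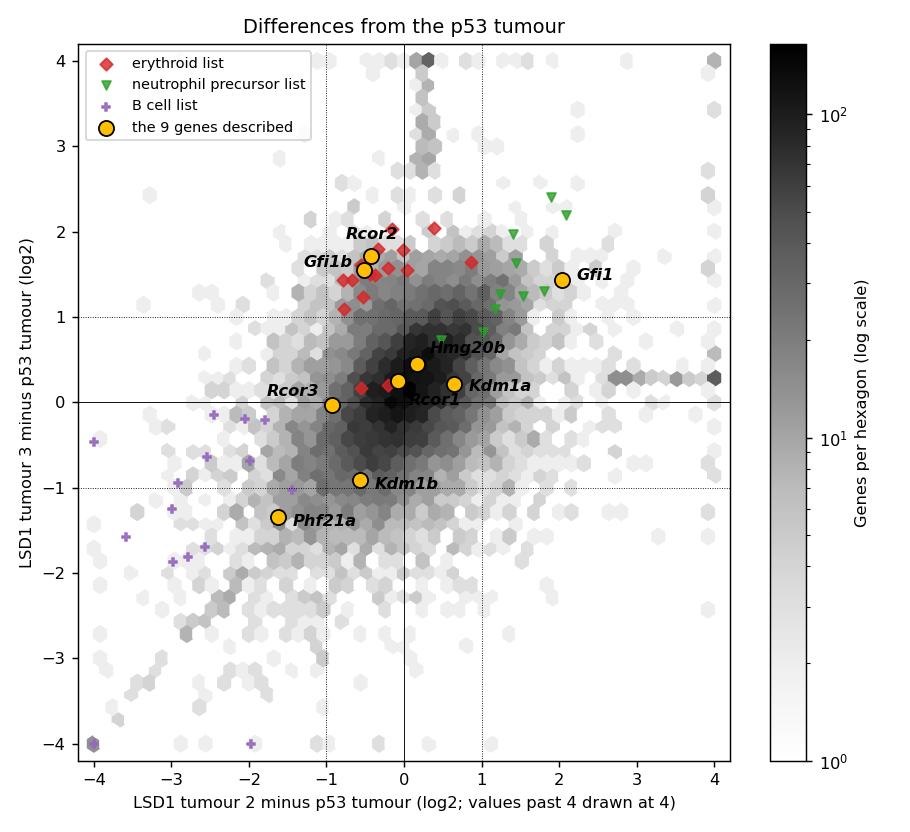
Difference of LSD1 tumour 2 (x axis) and LSD1 tumour 3 (y axis) from the p53 tumour (log2) for all 15241 genes tested (grey, genes per hexagon), the 9 genes described (circles) and 3 cell marker lists, with dotted lines at 2-fold. Gfi1 (2.04 and 1.43) lies near the neutrophil precursor genes, Gfi1b (-0.51 and 1.55) and Rcor2 (-0.43 and 1.72) near the erythroid genes, and Phf21a (-1.62 and -1.34) on the side of the B cell genes. Lists not drawn lie on these sides too: the proliferation genes were higher and most dendritic cell genes lower in both LSD1 tumours. Both axes share the p53 tumour, so values on them are not independent.

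The promoters of the 4 members with a 2-fold or larger difference from the control in at least 1 LSD1 tumour are shown because GFI1 and GFI1B bind a core AATC and are known to act on their own and each other's genes. Each is given 5′ to 3′ on the gene's strand over 300 bases, 250 before to 50 after the start site, from RefSeq on build GRCm38.p6. Capitals mark AATC or its reverse complement GATT, overlaps included. Gfi1 lies at chr5:107725756-107726055 (minus strand, the more upstream of its 2 start sites), Gfi1b at chr2:28621933-28622232 (minus), Phf21a at chr2:92185233-92185532 (plus, the more upstream of 2) and Rcor2 at chr19:7267144-7267443 (plus).
Gfi1: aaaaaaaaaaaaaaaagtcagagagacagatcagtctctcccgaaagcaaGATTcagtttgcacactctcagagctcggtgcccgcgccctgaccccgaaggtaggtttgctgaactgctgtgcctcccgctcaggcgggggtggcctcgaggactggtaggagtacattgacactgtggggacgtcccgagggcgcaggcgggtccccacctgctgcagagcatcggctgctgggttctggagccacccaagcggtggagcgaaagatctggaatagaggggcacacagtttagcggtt
Gfi1b: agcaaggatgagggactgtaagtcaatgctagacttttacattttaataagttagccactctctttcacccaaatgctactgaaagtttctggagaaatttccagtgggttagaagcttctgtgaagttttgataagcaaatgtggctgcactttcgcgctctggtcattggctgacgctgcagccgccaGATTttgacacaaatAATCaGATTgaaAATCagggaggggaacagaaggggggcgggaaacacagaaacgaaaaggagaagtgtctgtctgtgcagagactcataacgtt
Phf21a: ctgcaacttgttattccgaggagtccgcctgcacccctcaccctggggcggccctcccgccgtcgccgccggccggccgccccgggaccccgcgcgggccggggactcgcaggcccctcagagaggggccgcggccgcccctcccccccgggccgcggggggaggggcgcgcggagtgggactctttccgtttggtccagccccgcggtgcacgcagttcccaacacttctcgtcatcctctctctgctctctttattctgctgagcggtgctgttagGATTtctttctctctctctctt
Rcor2: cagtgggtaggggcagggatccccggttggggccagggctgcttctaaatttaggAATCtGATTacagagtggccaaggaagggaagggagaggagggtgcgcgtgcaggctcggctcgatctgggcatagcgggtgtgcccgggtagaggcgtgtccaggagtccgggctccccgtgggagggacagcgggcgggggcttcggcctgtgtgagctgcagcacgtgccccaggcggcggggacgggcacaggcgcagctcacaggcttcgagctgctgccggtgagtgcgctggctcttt

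The Gfi1b promoter held 4 copies of AATC, all in a short stretch upstream of the start site and on both strands. At least 4 copies were found in 10.1% of the 32851 promoters of this length. Gfi1 and Phf21a held 1 copy each and Rcor2 held 2, on opposite strands with 1 base between them, where 73.1% of all promoters held at least 1. The longer AAATCA, which contains AATC, was found on either strand in the promoters of Gfi1b and Kdm1b and in 14% of all. GATAA, the core of the erythroid GATA factors' motif, was found on either strand in that of Gfi1b alone among the members' 13 promoters and in 25.4% of all. The Gfi1b promoter was also the poorest in G and C of the members' first promoters, at 44.3% against 81.7% for Rcor3 and 61.3% for Kdm1a (median of all promoters 52.7%). These matches are letters in a window and were not tested for binding.

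Other subunits of the CoREST and LSD2 complexes differed little and in both directions. Of 11 such genes tested, 3 had higher and 4 had lower values in both LSD1 tumours, 1 of the former by at least 2-fold, near the 38.9% and 27.8% of all genes, with medians of 0.15 and -0.09, and 0 passed limma, with or without adjustment. Hdac1, the deacetylase of the complex, was higher by 0.57 in each. Its second probe gave 0.52 and 0.35. Hdac2, whose only named probe was dim, was not above background in the p53 tumour and was at least 2.64-fold and 2.45-fold higher. Ctbp1, the corepressor that CoREST complexes associate with, was higher by 0.36 and 0.63. The zinc finger gene Rreb1 was lower by its brightest probe (-0.48 and -0.34), by a second (-1.2 and -0.87) and by one above background on 1 array (-1.96 and -1.8), while the remaining probe gave 0.01 and 0.74. By the authors' value table the counts were 3 and 8.

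Subunits of NuRD, a second corepressor complex that LSD1 can join, were mostly higher. Of 11 tested, 7 had higher and 2 had lower values in both LSD1 tumours, as 38.9% and 27.8% of all genes had, with medians of 0.35 and 0.48 against 0.05 and 0.16 for all genes. The count of 7 was 6 by the authors' value table or quantile normalization, and 5 with a gene's probes averaged. The histone chaperone genes Rbbp7 (0.80 and 0.96) and Rbbp4 (0.44 and 0.72) and the scaffold gene Mbd3 (0.42 and 0.86) were higher. The remodelling helicase gene Chd3 was lower by 1.11 and 1.46 log2 units, with -0.95 and -1.08 by its other probe. None of the 11 passed limma (adjusted p from 0.967 to 0.993), nor an unadjusted p of 0.05.

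DNA-binding factors that can recruit LSD1, other than the GFI factors, were mostly lower in LSD1 tumour 2. Of 11 above background among 14 listed, 3 exceeded the control in LSD1 tumour 2 and 4 did in LSD1 tumour 3. The medians were -0.74 and -0.12, beside 0.05 and 0.16 for all genes. In both LSD1 tumours 1 was higher and 5 were lower, against 38.9% and 27.8% of all genes. The count of 5 was 3 with median scaling and 7 by the authors' value table. The LSD1 tumour 3 median was 0.08 and -0.48 under these. Bcl11a, a repressor of fetal globin and a B cell factor, stood at -1.62 and -0.12, with -2.1 and -0.9 by a second probe and -2.14 and -0.93 by another. Zfp516 stood at -1.43 and -0.06. Prdm1, the plasma cell repressor, stood at -1.47 and 0.05, and the SNAG domain factor gene Insm1 at -0.50 and -0.95. Tal1, the erythroid and stem cell factor, had the Gfi1b pattern (-0.19 and 1.46) and is named after its values were seen.

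Genes that GFI1 and GFI1B are known to repress lay on both sides of the control. Of 16, all above background on every array, 4 had higher and 6 had lower values in both LSD1 tumours, where 38.9% and 27.8% of all genes had, with medians of 0.07 and -0.14, and 0 passed limma, with or without adjustment. Irf8, a monocyte and dendritic cell factor, was lower by 1.67 and 0.82, and the stem cell homeobox gene Meis1 by 0.82 and 1.27. Nab2 (1.66 and -0.02) and Id2 (1.53 and -0.01) were higher in LSD1 tumour 2 alone. By the authors' value table the counts were 0 and 7. Of 12 neuronal genes silenced by REST with CoREST, 5 were above background on at least 1 array, and of these Snap25 was on all 3 (0.13 and -0.43). Stmn2 exceeded background only in the p53 tumour and was at least 4.68-fold and 4.72-fold lower in the others. Scn2a exceeded it only in LSD1 tumour 2 (at least 2.14-fold higher), and its other probes were above background on no array. Celsr3 was dim in LSD1 tumour 2 and differed by 0.61 in LSD1 tumour 3.

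**Figure D3:**
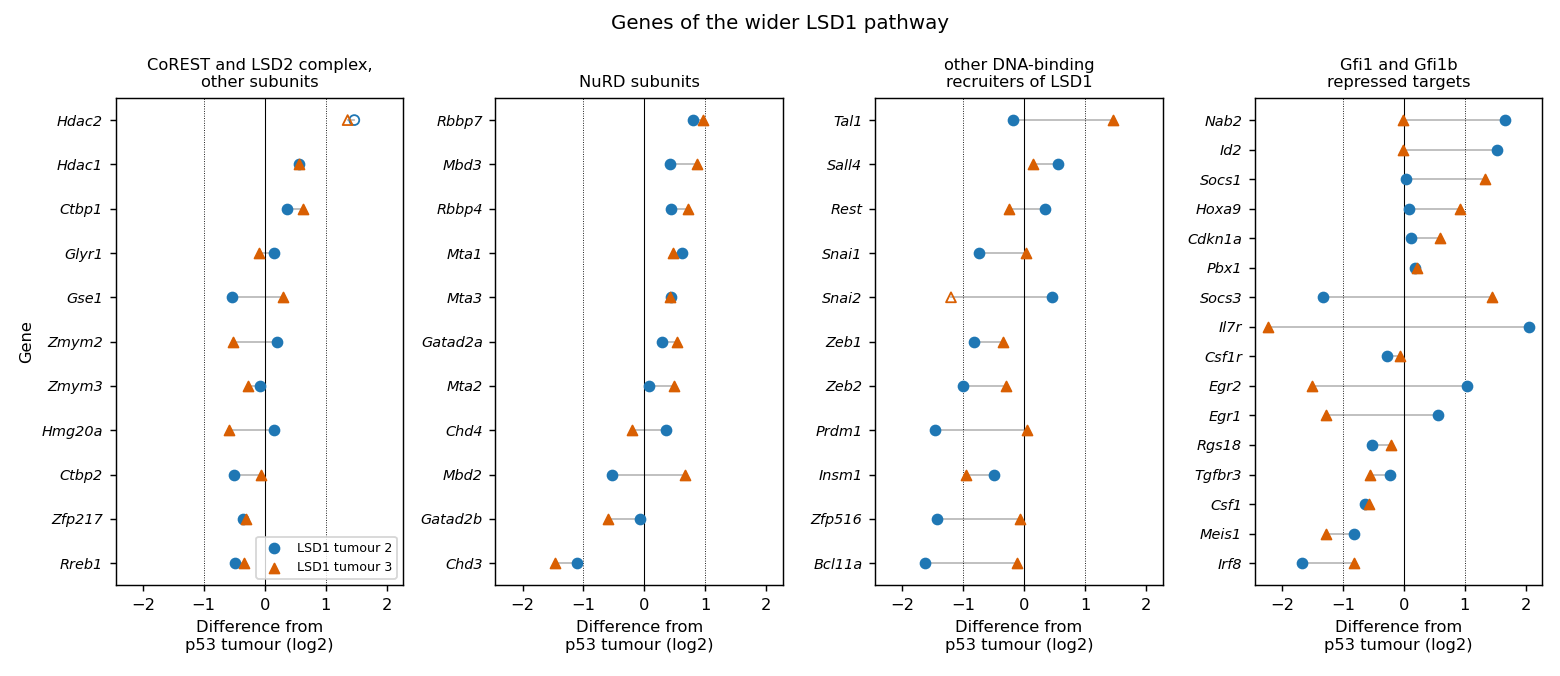
Differences of LSD1 tumour 2 (circles) and LSD1 tumour 3 (triangles) from the p53 tumour (log2) for tested genes of 4 lists of the wider LSD1 pathway, joined by a line for each gene, with open symbols where either side was not well above background and dotted lines at 2-fold. Most NuRD genes lie to the right of 0 in both tumours, with Chd3 on the left, while the targets of the GFI factors lie on both sides.

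Across the 9 members, each by its brightest probe, 3 were higher in both LSD1 tumours, 3 lower in both and 3 split. The shares of all genes were 38.9%, 27.8% and 33.4%. These counts include Hmg20b as higher and Rcor3 as lower, whose probes disagreed on direction. With a gene's probes averaged, 2 members were higher and 2 lower in both. The median differences of the 9 members by their brightest probes were -0.43 in LSD1 tumour 2 and 0.25 in LSD1 tumour 3. The median size of a difference, sign aside, was 0.57 and 0.91, beside 0.52 and 0.59 for all genes tested. The scaling mattered for the small differences: in the authors' value table, which moves the median gene to -0.16 and -0.20, 1 member was higher and 4 were lower in both. Relative to the median gene, 3 were above and 3 below in both with that table as with the 75th percentile, but 1 and 5 after quantile normalization. Of the 9 members, 5 (Kdm1b, Rcor2, Phf21a, Gfi1 and Gfi1b) kept the sign of both differences under each of the 9 settings. The filter and outlier settings left every member's value unchanged, and probe averaging moved only Rcor3, Phf21a and Hmg20b. For the other members only the scaling and background settings could thus change a value.

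**Figure D4:**
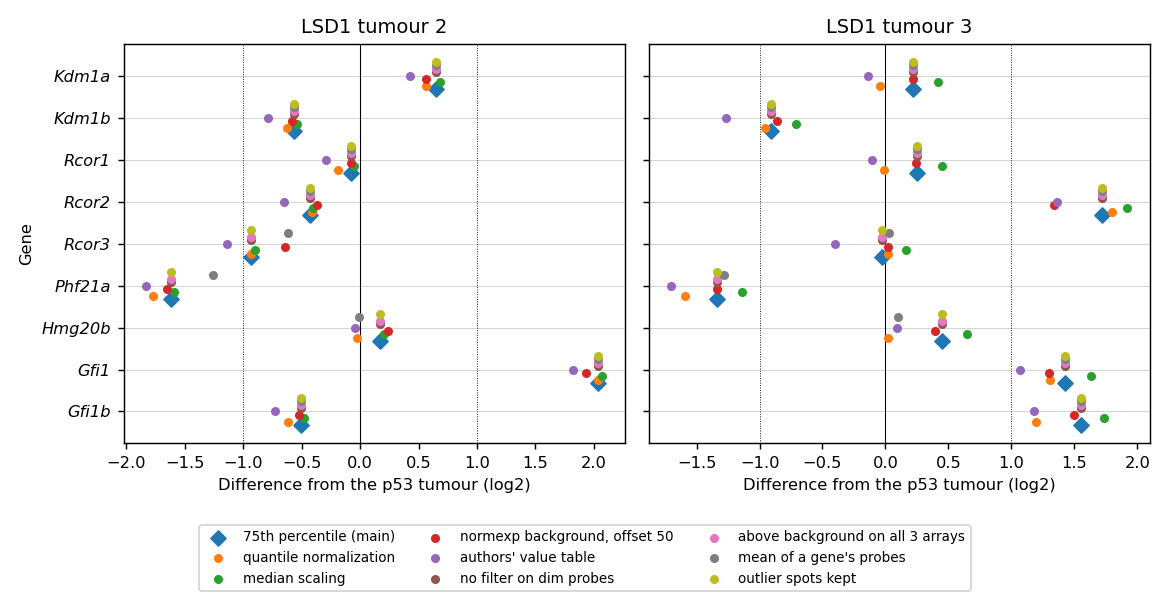
Difference of each LSD1 tumour from the p53 tumour (log2) for the 9 genes under 9 settings of scaling, background, filter and probe, the main setting as diamonds and dotted lines at 2-fold. Gfi1 and Phf21a stay beyond 2-fold in both tumours, while Rcor1, Rcor3, Hmg20b and Kdm1a have settings on both sides of 0 in at least 1 tumour.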

How the data were processed

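Total RNA of 3 splenic tumours was Cy3-labelled for 1 Agilent array each, per the labels' protocols. The deposited scans hold the processed signal, a linear intensity from Agilent Feature Extraction 11.5.1.1, which per the file headers subtracts background and a spatial trend. A deposited value table holds the same intensities times 1 factor per array (1.06, 0.779 and 0.902 for the p53 tumour and LSD1 tumours 2 and 3), whose basis is not given in the sources used here.

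Outlier spots were left out, signals divided by the array's 75th percentile (608, 712 and 554) and taken as log2, and spots of 1 probe averaged. Probes were named through RefSeq accessions in a table of assembly GRCm38.p6, used for names only since the array's build is mm9. limma 3.58.1 in R 4.3.3 (lmFit, eBayes, Benjamini-Hochberg) compared genotypes over 15241 genes with a probe above background on at least 1 array. With 1 tumour against 2 it has 1 residual degree of freedom and takes the spread of the single p53 array to be that of the LSD1 arrays. Its p-values rest on the gap between the LSD1 tumours, moderated with the spread of the other genes. That gap also holds the change of slide and scan. A gene counted as 2-fold higher needed both LSD1 arrays above background, and as lower the p53 array. "At least" marks a bound: the dim side was set to its own value or, if higher, to the lowest level that passed as above background on that array. The steps were also run on simulated data with a common spread for all genes and shifts larger than the differences of the members. That run cannot say how well differences of the members' size are found.

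The members and the 5 pathway and 16 cell marker lists were chosen with earlier results of these data known. Named genes are the members, up to 4 genes per pathway list by size of the mean difference, and the 3 listed genes nearest to Kdm1a, Gfi1, Gfi1b and Phf21a. Alternatives were quantile, median and normexp processing, the authors' table, filters, probe averaging, outlier spots, and leaving out a tumour or slide.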

Additional observations from a re-analysis of the deposited data

How the results depend on the processing

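The number of members 2-fold or more to one side of the control in both LSD1 tumours was 2 under each of the 8 alternatives of scaling, filter and probe. Leaving out 1 LSD1 tumour gave 2 to 4 members, and with slide as a block, which equals LSD1 tumour 3 against the p53 tumour, 4 (Gfi1b and Rcor2 in addition). Among all genes, 531 had values 2-fold above and 820 had values 2-fold below the control in both, 39.3% of them above. With normexp these were 323 and 394, 219 and 1266 by the authors' values (14.7% above), and among genes above background on all 3 arrays 447 and 416 (51.8%), while median scaling gave 51.1%. Leaving out 1 LSD1 tumour gave 1778 to 2321 higher and 1749 to 1750 lower, and the slide block 2321 and 1749, since a gene then has to pass in 1 tumour only. limma called 0 genes under the 8 alternatives, with 538 to 1756 genes at an unadjusted p under 0.05, and 0 probes under the 7 that apply to probes, with 1457 of 25499 (above background on all 3 arrays) to 5232 of 56589 (no filter). Without 1 LSD1 tumour or with the slide block no residual degree of freedom is left, so limma was not run. Of 144 alternative values of the 18 member differences, 131 moved by less than the SD between the LSD1 tumours, and neither Gfi1 nor Phf21a changed sign. Many of the 131 could not move: the filter and outlier settings reuse the main values of the members. Probe averaging likewise changes only genes with several probes above background. The count is therefore no measure of how stable the values are. No paired analysis was possible because the genotypes share no replicate number. The number of arrays limits the precision throughout.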

Other observations

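Other marker lists of cells that a spleen can hold gave the following values beside the same p53 tumour. Genes of mast cells and basophils were higher in both LSD1 tumours in 4 of 4 cases, where 38.9% of all genes were. Their medians were 0.87 and 1.37 log2 units, although their summed level was low (0.327, 0.881 and 1.16). With normexp 3 of 4 were higher in both (medians 0.49 and 0.7). The 3 of these genes above background on all 3 arrays had medians of 0.57 and 0.91. Plasma cell genes were lower in both in 6 of 7 (medians -2.16 and -0.43) and dendritic cell genes in 7 of 8 (-1.79 and -0.79). Among genes above background on all 3 arrays, these counts became 4 of 5 (-2.05 and -0.38) and 5 of 6 (-0.71 and -0.64). Genes of NK cells had medians of -1.02 and -2.24, of immature thymocytes -0.2 and -1.82 over 3 tested genes, and of stroma -0.49 and -0.97. The 5 NK cell genes above background on all 3 arrays had medians of -0.86 and -2.22. Endothelial genes had medians of -0.64 and -0.31, macrophage genes -0.21 and 0.14, and stem and progenitor genes -0.47 in each.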
